A study of Mus musculus with 96 samples.

Results

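RING1B peaks were compared between ESCs carrying an inducible Rybp and Stat3 construct with and without doxycycline (DOX). The DOX- list held 17021 RING1B peaks and the DOX+ list 12864, so 29885 of the 198446 peaks in the lists used here were RING1B peaks of this experiment. A peak was called shared when at least 1 bp overlapped a peak of the other list, lost when a DOX- peak had no such partner, and gained when a DOX+ peak had none. By this rule 4973 DOX- peaks were lost (29.2%, 95% Wilson interval 28.5 to 29.9) and 12048 were shared, while 781 DOX+ peaks were gained (6.07%, 95% Wilson interval 5.67 to 6.50). Each list was made by the authors from 2 replicates pooled into 1 set, so the spread between replicates is not known, no test across samples was possible, and every interval on a share of peaks covers counting error only.

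RING1B, encoded by Rnf2, is the catalytic E3 ligase of Polycomb Repressive Complex 1 (PRC1), which places ubiquitin on histone H2A. RYBP is a subunit of the PRC1 forms that lack CBX proteins, and it stimulates that ligase activity. In mouse ESCs PRC1 is known for its high occupancy at CpG-rich promoters of silent developmental regulators, and a weaker signal is often seen at active CpG-rich promoters. STAT3 is the transcription factor that acts downstream of LIF, the cytokine in the ESC medium. The labels give the ChIP cells as the R1 line with the integrated construct in both arms, so the DOX- control carried the same transgenes uninduced. The RNA libraries came from cells labelled rTRS with the same genotype, 2 labelled NTC (control) and 2 labelled DOX. The dose and duration of DOX, the promoter driving the transgenes and the number of clones are not given in the sources used here.

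The induction was checked first in the RNA. Rybp measured 113 and 110 CPM (counts scaled to library size) in the NTC libraries and 102 and 99.8 CPM in the libraries labelled DOX. Its levels in the libraries labelled DOX were thus below both controls, with a log2 fold change of -0.15 ± 0.06 (SE, n = 2 and 2) and an adjusted p of 0.076 (edgeR quasi-likelihood, Benjamini-Hochberg). Stat3 measured 159 and 172 CPM in NTC and 191 and 188 CPM with DOX. It was slightly higher in both DOX libraries, by 0.20 ± 0.06 on the log2 scale (adjusted p = 0.026, edgeR). The STAT3 ChIP lists of the same cells went from 2816 peaks without DOX to 30663 with DOX. RYBP protein was not measured in these files, so the arms are named here by DOX and not by RYBP level. All 8 ESC markers were present in all 4 RNA libraries, the lowest value being 84.6 CPM for Klf4 in a DOX library. Of the 8 fibroblast markers 4 (Col3a1, Postn, Dcn and Lum) did not pass the filter on low counts, Col1a1 rose by 0.91 on the log2 scale, Vim and Thy1 fell by 0.31 and 0.72, and Col1a2 did not pass the test.

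The start sites of 5 genes that head orderings of the 3 classes are printed here. Chaf1a and Xylb had the highest fold enrichment among genes whose promoter peak was lost, Edn2 and Lnx1 the highest among genes that gained one, and Polr3e had the largest fall in percentile of fold enrichment within the shared class. Each run covers 250 bases before to 50 after an annotated start site on NCBIM37 (mm9), 5′ to 3′ on the gene's strand, with CG dinucleotides in capitals.
Chaf1a, lost, chr17:56179577-56179876, plus strand: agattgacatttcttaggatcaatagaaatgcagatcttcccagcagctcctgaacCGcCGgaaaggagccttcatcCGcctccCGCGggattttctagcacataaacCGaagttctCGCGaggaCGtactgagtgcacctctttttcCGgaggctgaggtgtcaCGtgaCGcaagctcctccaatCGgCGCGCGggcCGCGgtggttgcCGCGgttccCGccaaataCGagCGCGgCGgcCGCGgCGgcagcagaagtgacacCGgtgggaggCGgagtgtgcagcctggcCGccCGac
Xylb, lost, chr9:119266456-119266755, plus strand: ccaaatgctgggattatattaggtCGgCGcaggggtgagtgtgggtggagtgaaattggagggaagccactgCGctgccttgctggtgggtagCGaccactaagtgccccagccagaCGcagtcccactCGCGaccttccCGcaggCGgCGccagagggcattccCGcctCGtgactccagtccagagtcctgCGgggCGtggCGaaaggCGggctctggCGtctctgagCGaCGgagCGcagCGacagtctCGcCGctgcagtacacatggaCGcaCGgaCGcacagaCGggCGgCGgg
Edn2, gained, chr4:119833561-119833860, plus strand: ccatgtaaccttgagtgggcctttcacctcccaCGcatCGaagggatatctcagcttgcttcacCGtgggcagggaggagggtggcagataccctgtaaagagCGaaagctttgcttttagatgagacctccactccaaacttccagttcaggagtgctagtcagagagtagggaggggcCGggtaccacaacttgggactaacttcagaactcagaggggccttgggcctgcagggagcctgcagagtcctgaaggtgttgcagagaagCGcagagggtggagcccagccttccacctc
Lnx1, gained, chr5:75098887-75099186, minus strand: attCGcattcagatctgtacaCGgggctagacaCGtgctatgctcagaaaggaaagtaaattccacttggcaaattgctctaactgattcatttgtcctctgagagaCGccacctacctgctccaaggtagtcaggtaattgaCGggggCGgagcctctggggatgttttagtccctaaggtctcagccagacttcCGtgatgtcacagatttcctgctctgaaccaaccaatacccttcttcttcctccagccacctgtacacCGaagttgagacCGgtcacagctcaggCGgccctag
Polr3e, shared, chr7:128061008-128061307, plus strand: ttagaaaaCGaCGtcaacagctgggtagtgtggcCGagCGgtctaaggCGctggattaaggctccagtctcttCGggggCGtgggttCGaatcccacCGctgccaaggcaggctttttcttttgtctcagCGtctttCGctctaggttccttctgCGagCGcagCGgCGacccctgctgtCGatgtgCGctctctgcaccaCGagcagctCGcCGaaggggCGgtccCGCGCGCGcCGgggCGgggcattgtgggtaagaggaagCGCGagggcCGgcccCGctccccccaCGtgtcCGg
The lost Chaf1a and Xylb promoters held 32 and 29 CG dinucleotides in 300 bases, and the Polr3e promoter held 33. The gained Edn2 and Lnx1 promoters held 6 and 10. The stretch of Dph1, the shared gene with the largest rise in percentile, is not printed and held 2. The Edn2 peak touched only the end of its stretch, and the Lnx1 peak lay outside its own, within the 1000 bp taken as promoter. None of the 5 held TTCNNNGAA, the palindromic core letters of the STAT3 element, which reads the same on both strands. That motif was present in 7.94% of the 22375 protein-coding promoters read over the same length. Those were placed at the 5′ end of the gene model, whereas the printed stretches used the annotated start site nearest the peak.

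Over whole classes the gained peaks had the lowest CG content, which single promoters such as Dph1 need not follow. In the 300 bases at the centre of each peak, lost peaks had a median of 18 CG dinucleotides, shared peaks 23 and gained peaks 9. The corresponding median GC contents were 61.7%, 65.0% and 54.3%. At promoters alone the lost and shared peaks had the same median of 27 CG dinucleotides, while the 153 gained promoter peaks had 14. Away from promoters the medians were 10 for lost, 14 for shared and 9 for gained peaks. TTCNNNGAA was found in 5.87% of lost peak centres (95% Wilson interval 5.25 to 6.56), 4.48% of shared (4.12 to 4.86) and 5.63% of gained (4.22 to 7.48). The gained interval overlapped both others, so no difference from either could be seen with 781 peaks.

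Lost RING1B peaks lay at the weak end of the list. Fold enrichment, the ratio of ChIP signal to local background that the peak caller writes for each peak, had a median of 3.71 in lost peaks and 7.00 in shared peaks. When the DOX- peaks were ordered by fold enrichment into 10 equal groups, 74.8% of the lowest group was lost (fold enrichment 2.23 to 3.22), against 30.7% of group 5 and 4.88% of group 7. In the top 2 groups 0 of 3404 peaks were lost. With 3 counts taken as the upper limit for 0 seen, not a Wilson interval, this allows a share of up to 0.0881%. Lost peaks were also narrow, at a median of 501 bp where shared peaks had 1258.5 bp, and they covered 2.86 Mb of the 26.5 Mb in the DOX- list. Gained peaks were weak and narrow in the same way, at a median fold enrichment of 3.49 and 452 bp, with 0.411 Mb in all. The boundary of the rule touched few peaks. The smallest overlap of any pair was 9 bp, 29 of 12184 pairs overlapped by less than 100 bp, and 136 lost peaks (2.73%) had a DOX+ peak within 1000 bp.

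**Figure D1:**
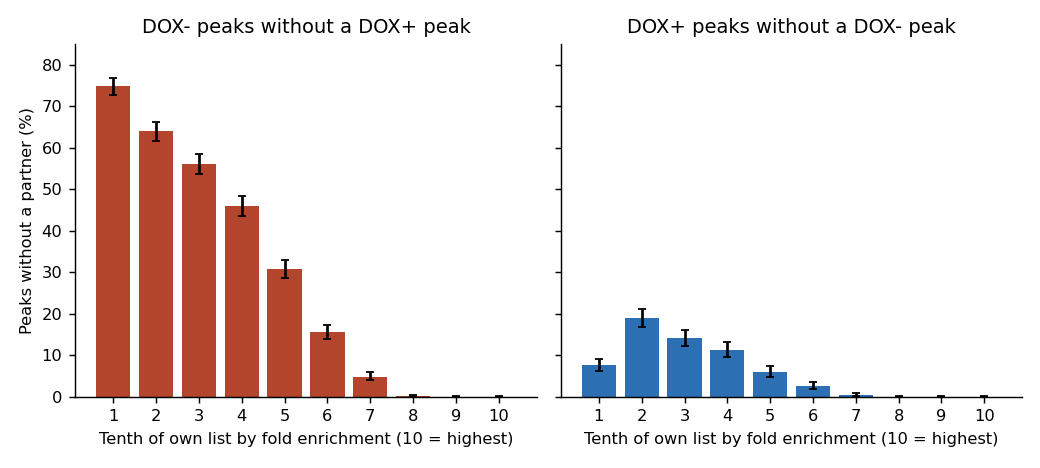
Share of RING1B peaks without a partner in the other list (y axis, percent) in 10 equal groups of each list by fold enrichment (x axis, 10 = highest), for DOX- peaks on the left and DOX+ peaks on the right; bars show the share and lines the 95% Wilson interval. The share lost falls from 74.8% in the lowest DOX- group to 0 in the top 2, and the share gained peaks at 18.9% in the second DOX+ group.

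The lists differed in length. The DOX+ list held 75.6% as many peaks as the DOX- list and covered 84.1% of its length. When the 12864 peaks with the strongest q-value were taken from both lists, 16.4% of DOX- peaks had no DOX+ partner and 15.8% of DOX+ peaks had no DOX- partner. With equal numbers and mostly 1 partner per peak these shares have to be close to each other, so they do not show whether loss outweighed gain. The read depth of the RING1B libraries is not known from these files.

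Shared peaks had lower fold enrichment in the DOX+ list. Over the 12048 shared peaks, each set against its DOX+ partner, the median was 7.00 without DOX and 5.27 with DOX. The median ratio of DOX+ to DOX- was 0.771 (quartiles 0.633 and 0.941), and 81.1% of peaks had a ratio below 1. In 5 equal groups by the geometric mean of both values, the ratio was 0.826 in the weakest group, with 73.9% below 1, and 0.762 in the strongest, with 90.2% below 1. Grouping by the DOX- value alone gave 0.967 and 55.2% in the weakest group and 0.738 and 93.5% in the strongest. Median width in the strongest group by the geometric mean was 3331 bp without DOX and 3361 bp with DOX, whereas the median over all shared peaks went from 1258.5 bp to 1065 bp. Only 44 shared peaks had a ratio above 2, and for 41 of them the DOX+ partner also overlapped another DOX- peak, so that a weak DOX- peak was set against a wider DOX+ domain. A further 855 had a ratio below 0.5. Fold enrichment depends on the efficiency of each immunoprecipitation and its input, so a shift between the immunoprecipitations and a lower level of RING1B on chromatin cannot be told apart.

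**Figure D2:**
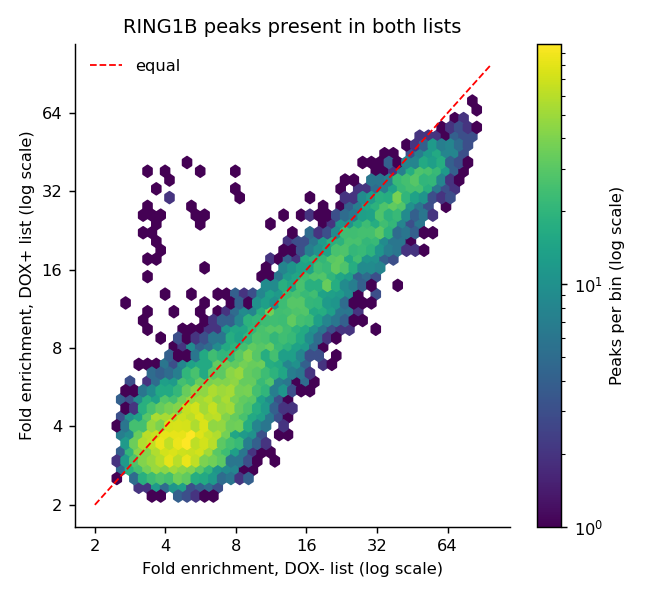
Fold enrichment of 12048 shared RING1B peaks in the DOX- list (x axis, log scale) and in the overlapping DOX+ peak (y axis, log scale); colour gives the number of peaks per bin on a log scale and the dashed line marks equal values. Most of the cloud lies below the line, with a median ratio of 0.771, and the small group at the upper left holds the weak DOX- peaks that overlap a strong DOX+ domain.

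The widest RING1B domains lay over the Hox clusters in both lists. The Hox genes encode the homeodomain factors that pattern the body axis. The widest DOX- peak, 113 kb over the Hoxa cluster, had a fold enrichment of 42.3. In the DOX+ list the same stretch was split into 4 peaks of 111 kb in all, the widest of them 68.8 kb with a fold enrichment of 35.2. The Hoxc domain measured 74.9 kb without DOX and 74.3 kb with DOX, and its fold enrichment was 37.7 and 29.7. The Hoxb domain measured 66.0 kb and 66.2 kb, with fold enrichment of 42.0 and 29.1. The Hoxd domain, which also held Evx2, measured 62.4 kb and 62.8 kb, with 51.4 and 38.0. The width of these 3 domains thus changed by under 1 kb while each value of fold enrichment was lower with DOX. The last of the 5 widest was a 49.0 kb domain at Nr2f2 in the DOX- list and a 36.1 kb domain at Dlx5 and Dlx6 in the DOX+ list. Both were present in the other list too. The Nr2f2 stretch was split into 2 DOX+ peaks of 48.7 kb in all, and the Dlx5 and Dlx6 domain measured 37.0 kb without DOX.

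At protein-coding promoters, taken as 1000 bp on either side of an annotated start site, the classes were counted by gene. Of 11974 genes with a DOX- promoter peak, 2926 had lost it (24.4%), 9021 had a promoter peak in both lists and 27 had a DOX+ partner that no longer reached the window. Of the 10406 genes without a DOX- promoter peak, 101 gained one (0.971%) and 12 were reached by a DOX+ peak whose DOX- partner lay outside the window. Among the 9021 shared genes the DOX+ fold enrichment was lower in 87.9%, with a median ratio of 0.724. For 124 of them the highest DOX- and DOX+ peaks of the window did not overlap each other.

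Developmental regulators had RING1B at their promoters in both lists, with 3 of 5 lists losing none. Their DOX- medians ran from 36.4 to 48.5, and 0 of 3404 DOX- peaks from 12.451 up were lost in the whole list. In the strongest of 5 groups of all shared peaks by DOX- value 93.5% had a ratio below 1. Neither the lack of loss nor the ratios below 1 are thus particular to these genes. All 39 Hox genes had a shared promoter peak, at a median fold enrichment of 42.3 without DOX and 29.7 with DOX. The ratio was below 1 for all 39 (0.55 to 0.89), and neighbouring Hox genes share 1 domain, so these are not separate measurements. All 61 other homeodomain and paired factors were shared, with medians of 48.5 and 37.7 and a ratio below 1 for all 61. Otx1, a forebrain regulator, was the highest at 71.8 without DOX and 54.2 with DOX. Nkx2-4, a homeodomain factor of the same list, went from 71.2 to 39.3. Of 46 forkhead, GATA, SOX and T-box factors 44 were shared, Gata1 had no peak in either list, and Foxh1, the DNA-binding partner of SMADs in Nodal signalling, lost a weak peak (fold enrichment 3.27). Tbx1 headed this list with 72.9 without DOX and 52.7 with DOX. Of 31 neural bHLH and POU factors 29 were shared, and Msgn1, a regulator of presomitic mesoderm, lost a peak of 3.94. Of 46 signalling ligands and modulators 43 were shared, with a ratio below 1 for 38, and Wnt8a, Nodal and Cer1 had no promoter peak in either list.

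Genes of the germ line and cell cycle inhibitors lost none of their peaks. Their median DOX- fold enrichments were 23.2 and 22.0. In the whole DOX- list 0 of 3404 peaks from 12.451 up were lost, so at that strength keeping a peak is not particular to these genes. Of 18 germ cell and meiosis genes 17 were shared, at medians of 23.2 and 15.1, and Stra8 had no peak. Sycp1, a component of the synaptonemal complex, went from 40.4 to 27.4. Its promoter also held the highest DOX+ STAT3 value of the list, 38.4, and 16 of the 18 genes had a STAT3 peak with DOX and none without. Over all genes with a shared RING1B peak 97.0% had a STAT3 peak with DOX and 18.1% without. The INK4 locus gene Cdkn2a went from 33.0 to 21.1, and Cdkn1c, the imprinted inhibitor p57, from 48.6 to 25.9. Of the 7 inhibitors 6 were shared and Cdkn2d had no peak.

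Polycomb genes themselves had both shared and lost peaks. Over all 11974 genes with a DOX- promoter peak 24.4% lost it, and neither Polycomb list lost a larger share. Of 30 PRC1 genes 24 had a shared promoter peak and 5 lost it: Cbx7, the main chromodomain subunit of canonical PRC1 in ESCs (6.47), Usp7 (5.21), Pcgf1 (4.76), Phc1 (3.17) and L3mbtl2 (3.11). Rybp kept its peak just upstream of the gene, chr6:100237627-100238157 in the DOX- list, with 8.78 and 7.73. Rnf2, the gene of RING1B, went from 5.82 to 2.62, which is at percentile 2.35 of the DOX+ list. Rnf2 RNA measured 192 and 195 CPM in NTC and 180 and 185 CPM with DOX, and the difference did not pass the test (log2 fold change -0.08 ± 0.06, adjusted p = 0.28, edgeR). Of 13 PRC2 genes, 10 were shared, all with a ratio below 1, and Eed (3.84) and Mtf2 (3.82) lost their peak. Eed, the subunit that reads trimethylated H3K27, fell from 190 and 174 CPM to 111 and 112 CPM, a log2 change of -0.71 ± 0.07 (adjusted p = 2.77e-06, edgeR). Over all 16291 genes tested 23.0% rose and 20.4% fell. In the whole lists 9 PRC1 genes rose and 7 fell of 30, near those shares, and 3 PRC2 genes rose and 7 fell of 13.

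**Figure D3:**
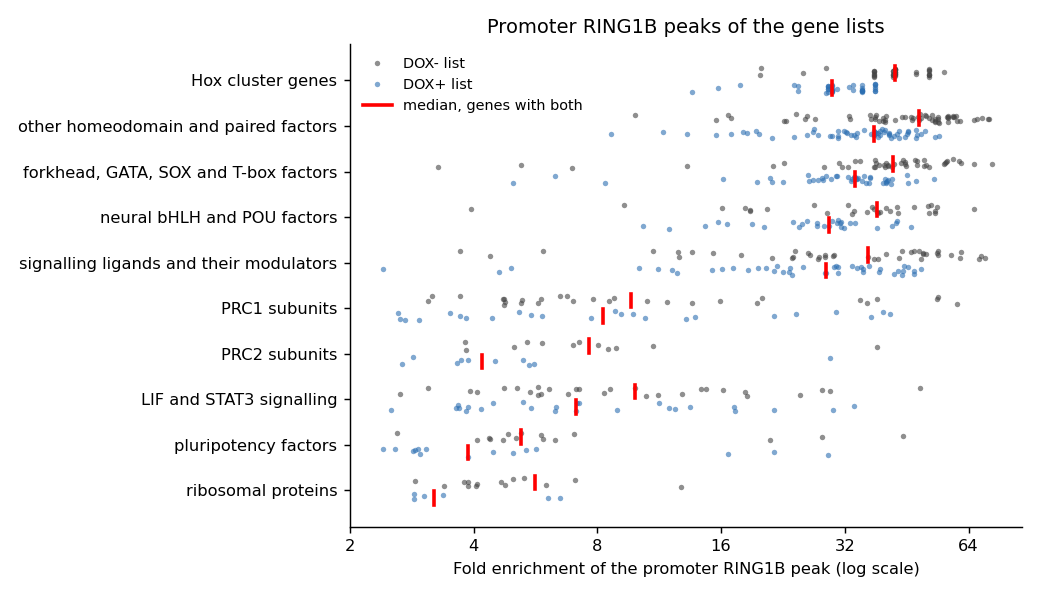
Fold enrichment of the highest promoter RING1B peak (x axis, log scale) for the genes of 10 lists (y axis) in the DOX- list (grey) and DOX+ list (blue); each point is a gene with a peak in that list and the red bar is the median over genes with a peak in both. The 5 developmental lists have medians from 36.4 to 48.5 without DOX and from 28.8 to 37.7 with DOX, and the other 5 have medians from 5.23 to 9.88 without DOX.

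The genes of LIF and STAT3 signalling, pathway members as well as targets, differed from gene to gene. For comparison, 24.4% of all genes with a DOX- promoter peak lost it. Of 32 genes of this pathway 25 had a shared RING1B peak, 4 lost it and 3 had none. The 4 were Ptpn11, which encodes the phosphatase SHP2 (7.24), Pias1 (4.07), Stat3 itself (3.92) and Icam1 (2.66). The lost Stat3 peak lay at chr11:100800145-100801334 over the start site, where the STAT3 fold enrichment was 27.3 without DOX and 52.9 with DOX. Socs3, the feedback inhibitor of LIF signalling, was one of 4 shared genes of the list with a higher value with DOX, at 5.74 and 7.12. Its RNA fell from 284 and 250 CPM to 84.5 and 81.1 CPM, a log2 change of -1.69 ± 0.07 (adjusted p = 2.60e-09, edgeR). Fosl2 had the highest RING1B value of the list, 48.8 without DOX and 30.0 with DOX, and its RNA rose from 4.05 and 3.91 CPM to 17.6 and 17.1 CPM. Irf1, a known STAT target, went from 5.75 to 3.62 in fold enrichment and its RNA rose from 18.5 and 19.0 CPM to 79.9 and 77.6 CPM. Both rises passed the test (adjusted p = 6.22e-08 and 1.07e-09, edgeR). Among the 31 genes of the pathway tested 14 rose and 9 fell, beside 23.0% and 20.4% of all genes.

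Pluripotency factors had weak RING1B peaks or none, with a few exceptions. Of 23 genes 15 had a shared peak and 8 had none, and no gene of the list lost or gained one. Loss over all genes with a DOX- promoter peak was 24.4%. Esrrb, an orphan receptor of naive pluripotency, had 44.4 without DOX and 29.0 with DOX. Its RNA fell from 747 and 757 CPM to 386 and 382 CPM (log2 change -0.97 ± 0.05, adjusted p = 2.01e-08, edgeR). Gbx2 had 28.1 and 21.5, and Prdm14 21.0 and 16.6. Pou5f1 and Nanog had no promoter peak in either list. In RNA 19 of the 23 fell, where 20.4% of all genes did, and 1, Lin28a, rose.

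Ribosomal protein genes served as a list of active promoters. Of 27 genes 8 lost a RING1B peak, 6 had a shared one and 13 had none to lose. Among those with a DOX- peak, lost ones thus outnumbered shared ones. This is a larger share than the 24.4% lost over all genes with a DOX- promoter peak. The lost ribosomal peaks were weak, such as 2.89 at Rpl5 and 4.07 at Rpl32. Rpl7 had the highest shared value, 12.8 without DOX and 6.50 with DOX. In RNA 8 of the 27 rose and 1 fell, the rises near the 23.0% of all genes, with log2 fold changes from -0.23 to 0.26 over the list.

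The lost promoter peaks with the highest fold enrichment came from genes of mixed function. They were Chaf1a, a subunit of the CAF-1 histone chaperone (9.28, chr17:56179599-56180436), Xylb, the xylulose kinase (8.29), Rundc1 and Aarsd1, which share 1 peak between their start sites (8.22), Coq3, a methyltransferase of ubiquinone synthesis (8.15), the ribosomal gene Rpl17 (8.02), the protease gene Tmprss12 (8.01), Mtch2 of the outer mitochondrial membrane (7.78), the nucleoporin gene Nup153 (7.57) and Tfg (7.56). Each of the 10 promoters also held a RING1B peak in the shEV list, the shStat3 list or both, which are RING1B lists of 1 library each from R1 ESCs labelled shEV (control) and shStat3 (Stat3 knockdown). Xylb, Rpl17 and Nup153 had one in the shStat3 list alone, and Rundc1 and Tmprss12 in the shEV list alone. In RNA Coq3 fell from 20.8 and 20.2 CPM to 11.9 and 15.4 CPM, and Nup153 fell from 289 and 315 CPM to 235 and 246 CPM. Mtch2 and Aarsd1 fell by 0.29 and 0.24 on the log2 scale. Tfg rose by 0.17, just inside the threshold (adjusted p = 0.0497, edgeR), and the other 5 did not pass the test.

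The promoters that gained a peak did so at low values. Edn2, an endothelin gene, headed them with 5.53 at chr4:119833858-119834688, which is above 55.9% of the DOX+ list. The others, from 5.19 to 4.39, were Lnx1, Rnf26, Cspg4, Slc15a3, Pabpc5, Rhox9, Dhx34, Pdcl and Fam101a. Edn2 and Pabpc5 also had a RING1B peak in the shEV list, Cspg4 and Slc15a3 in the shStat3 list, and Fam101a in both, whereas the remaining 5 had one in neither. Dhx34 RNA rose from 22.4 and 25.3 CPM to 37.2 and 31.0 CPM, Rnf26 rose from 39.8 and 38.7 CPM to 46.5 and 45.5 CPM, and Pdcl fell from 57.1 and 66.4 CPM to 47.3 and 50.7 CPM. Fam101a rose from 0.10 and 0.07 CPM to 0.69 and 0.75 CPM, and it passed the test at these very low levels (adjusted p = 0.0033, edgeR).

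Within the shared class genes were also ordered by the change in percentile of fold enrichment within the own list. The lists differ in length and in weak peaks, so a change in percentile is not by itself a change at the gene. Polr3e, an RNA polymerase III subunit, went from percentile 73.8 to 0.89 (fold enrichment 9.33 and 2.48). Eif3a, a translation initiation factor, Slc7a5, an amino acid transporter, Fam49a and Zbtb41 had fold enrichments of 8.76 to 11.2 without DOX and 2.49 to 2.93 with DOX. For 4 of the 5 genes with the largest rise in percentile the DOX+ domain was already present without DOX next to the weak peak taken for the gene. The Dph1 promoter had a DOX- peak of 3.92, but the neighbouring domain that gave it a DOX+ value of 38.1 measured 59.1 without DOX. At Shmt2 the domain of 24.5 measured 22.0 without DOX, at Dmpk that of 17.3 measured 26.6, and at Pcdhb21 that of 9.22 measured 9.52. At Mtfmt alone a single DOX- peak of 2.87 overlapped a DOX+ peak of 5.99.

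STAT3 was present at most RING1B sites after DOX, and RING1B was lost less often where it was. Of the 17021 DOX- RING1B peaks 83.3% overlapped a DOX+ STAT3 peak and 11.1% a DOX- STAT3 peak. The share lost was 21.9% at the 14172 peaks with a DOX+ STAT3 peak and 65.4% at the 2849 without, a difference of -43.4 percentage points (95% Newcombe interval -45.3 to -41.6). STAT3 overlap went with RING1B strength, from 62.4% of the weakest group of RING1B peaks to 99.9% of the strongest. Median width went from 513 to 3763 bp over the same groups, and a wider peak more easily meets an overlap of 1 bp. What width adds to the STAT3 difference was not tested. Averaged within the 10 groups of fold enrichment the difference was -14.0 points, and it was below 0 in 7 of the 10. No peak was lost in the top 2 groups, so their difference was 0 for any feature and draws such averages towards 0. Peaks where STAT3 was called only with DOX were lost in 23.5% of 12308 cases, and those with STAT3 in both states in 11.6% of 1864. The latter were stronger, at a median DOX- fold enrichment of 8.21 against 5.67. Over all DOX- peaks the difference for a DOX- STAT3 peak was -19.0 points, but -3.26 points within groups of fold enrichment. Among shared peaks the median ratio was lower with a DOX+ STAT3 peak, at 0.759, than without, at 0.941. This held in each of the 5 groups by DOX- fold enrichment, with differences of -0.0899 to -0.131, although the strongest group held just 12 peaks without STAT3. Ratios exist only for peaks called again with DOX. Peaks without STAT3 were lost more often, and the shared ones among them were weaker (median DOX- fold enrichment 4.55 against 7.39). The ratios with and without STAT3 thus come from differently filtered sets, and what this filter adds to their difference was not tested. Gained RING1B peaks overlapped a DOX+ STAT3 peak in 51.1% of cases, against 91.8% of shared DOX+ peaks. The share gained was 3.47% with STAT3 and 27.9% without, a difference of -24.4 points (95% Newcombe interval -26.8 to -22.1), or -14.5 points within groups of fold enrichment. No peak was gained in the top 3 DOX+ groups, so their difference was 0 in any case.

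The marks of active promoters were set beside the classes, from lists of untreated Rybp+/+ ESCs of another line, R7.15, so they describe the sites and not the DOX cultures. H3K4me3 marks promoters, H3K27ac marks active promoters and enhancers, and WDR5 is a shared subunit of the H3K4 methyltransferase complexes. H3K4me3 was present at 81.3% of lost peaks, 94.9% of shared peaks and 437 of the 781 gained peaks, and DOX- peaks with it were lost less often, at 26.1% against 60.2%, although the mean difference within groups of fold enrichment was -6.84 points, below 0 in 6 of the 9 groups that could be compared. With H3K27ac the share lost was higher, at 34.0% of 9349 peaks against 23.4% of 7672 without (difference 10.7 points, 95% Newcombe interval 9.31 to 12.0). Within groups of fold enrichment this difference averaged 6.77 points and was below 0 in none of the 10. The top 2 of these groups held no lost peak, so they could not fall below 0. WDR5 peaks gave 26.3% against 32.4% without, yet an average of 3.68 points higher within the groups. The same marks went with lower fold enrichment among shared peaks. The median ratio was 0.697 with H3K27ac and 0.849 without, and 0.693 with WDR5 and 0.886 without. For both marks the ratio was lower in each of the 5 groups by DOX- fold enrichment, with differences from -0.0627 to -0.213 for H3K27ac and from -0.0663 to -0.228 for WDR5.

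**Figure D4:**
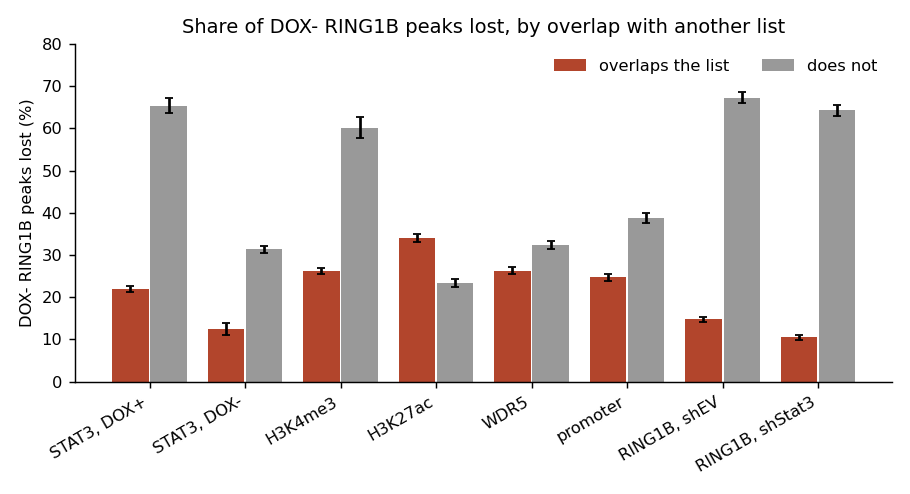
Share of DOX- RING1B peaks lost (y axis, percent) among peaks that overlap another list or a promoter (red) and among those that do not (grey), for 8 features (x axis); lines are 95% Wilson intervals. Overlap with a DOX+ STAT3 peak goes with 21.9% lost against 65.4%, and overlap with H3K27ac with 34.0% against 23.4%.

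By position, lost peaks were at promoters in 57.2% of cases, shared peaks in 72.1% and gained peaks in 19.6%. Gained peaks lay between genes in 44.2% and in gene bodies in 36.2%. DOX- peaks at promoters were lost in 24.7% of cases and those elsewhere in 38.7%, a difference of -14.1 points (95% Newcombe interval -15.6 to -12.6). Promoter peaks were stronger, and averaged within groups of equal fold enrichment the sign turned, to 2.46 points more lost at promoters. Over the 20 chromosomes the share lost ran from 23.7% on chromosome 18 to 33.0% on chromosome 10.

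RING1B lists from other cultures held most shared peaks and a smaller share of the lost ones. The shEV list, with 14408 peaks, covered 87.3% of shared, 36.5% of lost and 28.3% of gained peaks. The shStat3 list, with 12017 peaks, covered 82.4%, 23.4% and 17.7%. Of lost peaks 54.8% were in neither list, against 8.81% of shared peaks and 65.3% of gained peaks. The share lost was 14.7% inside the shEV list and 67.3% outside, a difference of -52.5 points (95% Newcombe interval -54.0 to -51.0) and -21.1 points within groups of fold enrichment.

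RNA changes were read against the promoter classes with counts from the rTRS libraries, which held 50312058 to 53779354 counts on genes. Of 16291 genes tested 3739 rose with DOX (23.0%) and 3331 fell (20.4%) at an adjusted p below 0.05 (edgeR). Among the 2801 tested genes that had lost a promoter peak, 550 rose (19.6%) and 748 fell (26.7%). Among the 7952 with a shared peak 2512 rose (31.6%) and 1478 fell (18.6%). The 85 tested genes that gained a peak gave 20 that rose (23.5%) and 18 that fell (21.2%), close to the background. Genes with no peak in either list gave 14.7% and 24.1% of 3773. The lost class thus had fewer rises and more falls than all genes, and the shared class more rises; these shares were not tested against each other. The classes differ in expression, with a median of 41.8 CPM for lost and 20.0 CPM for shared genes. At 10 to 50 CPM the shares that rose were 22.5% of lost and 39.0% of shared genes, and at 50 CPM or more they were 18.7% and 28.2%. At that level genes without any peak gave 17.8% that rose and 38.6% that fell, close to the 18.7% and 37.8% of lost genes. When a log2 fold change over 1 in size was also required, 71 of the 2801 lost genes rose and 38 fell. All 16291 genes gave 1255 and 698. With this limit the lost class had smaller shares of both rises and falls than all genes, so its excess of falls was not seen there.

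In the shared class rises were more frequent where RING1B was strong. Ordered by DOX- fold enrichment into 5 equal groups, the share that rose went from 25.1% of 1591 genes to 39.5% of 1590, and the share that fell from 23.7% to 12.3%. The median log2 fold change went from 0.01 to 0.40, while the median level went from 38.5 to 3.39 CPM. Ordered by the ratio of DOX+ to DOX- fold enrichment, the group with the lowest ratios (0.0919 to 0.561) gave 28.8% that rose and the group with the highest (0.902 to 9.73) gave 33.9%. At 10 to 50 CPM these shares were 32.8% and 44.4%, and the shares that fell were 16.1% and 21.1%. The order of the rises was the same at 1 to 10 CPM and at 50 CPM or more. Under 1 CPM it was the reverse, at 14.1% and 12.5%. Whether the RNA changes go with the change in RING1B was not tested.

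**Figure D5:**
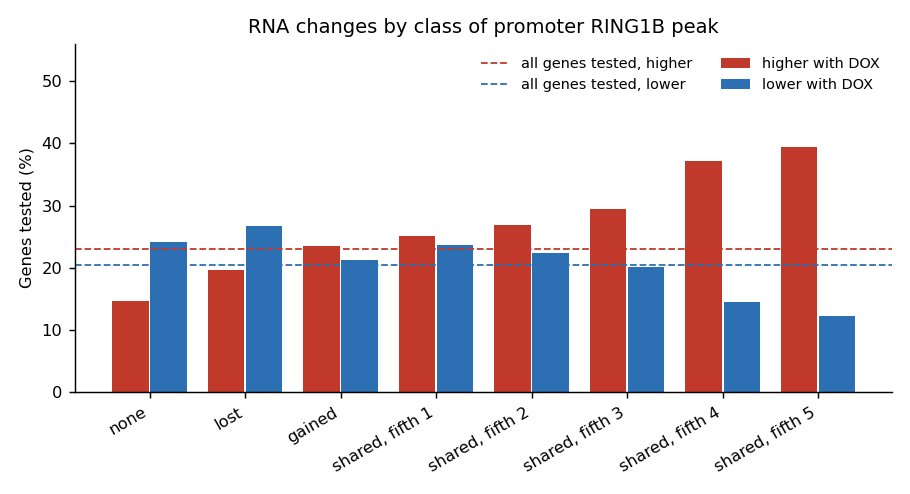
Share of tested genes (y axis, percent) that were higher (red) or lower (blue) with DOX at an adjusted p below 0.05, for genes without a promoter RING1B peak, with a lost or gained peak, and with a shared peak in 5 equal groups by DOX- fold enrichment (x axis, 5 = highest); dashed lines give the shares over all 16291 genes tested. The share higher rises from 25.1% to 39.5% over the shared groups, and the lost class stands at 19.6% higher and 26.7% lower.

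Several lineage markers with a shared RING1B peak rose. The trophectoderm factors Cdx2 and Gata3 had shared peaks of 36.7 and 44.8 without DOX and 25.9 and 33.7 with DOX. Cdx2 rose from 0.72 and 0.67 CPM to 9.65 and 10.2 CPM (log2 fold change 3.83 ± 0.20, adjusted p = 1.42e-08, edgeR), and Gata3 from 0.51 and 0.47 CPM to 9.76 and 6.68 CPM (4.07 ± 0.27, adjusted p = 1.04e-07, edgeR). Krt8 and Krt18, keratins of simple epithelia, rose by 2.71 and 2.80, so that all 4 trophectoderm markers tested rose. Of the 6 mesoderm markers 2 rose, T (brachyury) from 1.45 and 1.56 CPM to 31.2 and 29.9 CPM and Eomes from 11.0 and 9.21 CPM to 29.8 and 26.0 CPM. The T promoter kept its RING1B peak at 34.0 and 30.6 and Eomes had a ratio of 0.642. Of 5 primitive endoderm markers tested Dab2 rose and the others did not pass the test, and of 3 neural markers tested Nes rose while Pax6 and Tubb3 fell. Of the 8 ESC markers 6 fell, and Nanog and Dppa5a did not pass the test. In these bulk libraries a change in the share of cells of a type and a change in RNA per cell cannot be told apart. Of 13 Hox genes tested, with all 39 promoters under RING1B in both lists, 2 rose and 1 fell. Beside these counts, 23.0% of all genes tested rose and 20.4% fell. The small counts of rises among mesoderm, primitive endoderm and Hox genes do not stand out from these shares.

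Among genes that lost a promoter peak the largest RNA rises were at Pdlim3, Pdgfrl, Svop, Peg3 and P2rx4. Pdlim3, a muscle LIM protein gene, rose from 2.25 and 1.75 CPM to 12.3 and 13.4 CPM (log2 fold change 2.69), from a RING1B peak of 2.78. Peg3, a paternally expressed imprinted gene, rose from 56.5 and 62.0 CPM to 219.9 and 228 CPM (1.92), from a peak of 3.24. The largest falls were at Spry4, Chac1, Jam2, P2rx3 and Trps1. Spry4, a feedback inhibitor of FGF and ERK signalling, fell from 154 and 169 CPM to 20.6 and 21.5 CPM (-2.94), and Jam2, a junction protein gene, from 182 and 188 CPM to 60.1 and 59.0 CPM (-1.63). All 10 had lost a peak with a fold enrichment between 2.78 and 5.36. Among genes that gained a peak, Enpp2, the gene of autotaxin, rose most, from 0.96 and 0.86 CPM to 13.9 and 13.0 CPM (3.88), at a DOX+ peak of 4.14. Rhox10 fell most, from 5.56 and 4.52 CPM to 1.17 and 2.12 CPM (-1.61), and the Src-family kinase gene Lck fell from 27.0 and 26.3 CPM to 15.9 and 14.7 CPM (-0.80).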

How the data were processed

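The deposited RING1B lists hold, per broad peak, a fold enrichment (ratio to local background) and a −log10 q-value (from about 1, q near 0.1), made by the authors on mm9 from 2 pooled replicates. Antibody, caller settings and read depth are not given in the sources used here. The deposited RNA counts are raw reads per gene (Trim Galore, STAR and HTSeq, per the labels). Rows naming no gene were left out: 18.6% to 19.4% of a library was not uniquely aligned and 6.32% to 7.02% fell in no gene or several. A column named S5-DOX_R2 was taken as the second DOX library.

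Overlaps used NCBIM37 with GENCODE vM1 and Python 3.11.15, with Wilson and Newcombe intervals (statsmodels 0.14.6). RNA was tested with edgeR 4.0.16 (TMM, filterByExpr, glmQLFTest, Benjamini-Hochberg, threshold 0.05), checked on simulated data, with DESeq2 1.42.0 as an alternative. SE is the log2 fold change over the root of F. Nothing says that the 2 libraries per group were separate cultures, so p-values cover their spread only, which may be technical.

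Named genes were Rybp, Stat3 and Rnf2, the 10 highest lost and gained promoters, the 5 largest rises and falls in percentile of shared ones, the 5 largest RNA rises and falls of lost and gained genes with at least 5 CPM in one group, the 5 widest peaks per list and examples from 18 lists (391 symbols, 5 unmatched), passing over predicted genes. Members and lists were chosen with earlier results of these data known. A few list members are not reported here.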

Additional observations from a re-analysis of the deposited data

How the results depend on the processing

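The peak lists hold no replicates, so none could be left out there. Of 99 alternatives 63 kept the value within its counting interval, or within 1.5 times for counts of genes, 35 moved it and 1 turned its sign. With a partner covering at least 50% of the peak, 35.9% of DOX- peaks were lost and 8.77% of DOX+ peaks gained, and the STAT3 differences were -40.9 (lost) and -29.2 points (gained). With partners up to 1000 bp away these were 28.4%, 5.35%, -41.3 and -20.5, with -12.4 for promoters and -50.6 for shEV. With a −log10 q of at least 3, 5.66% were gained, and the differences were -39.9 (STAT3, lost), -21.1 (STAT3, gained) and -5.51 points (promoters). With equal numbers of top peaks the DOX+ list had 100% of the DOX- number and 93.1% of its length, 16.4% were lost and 15.8% gained, and the differences were -33.6 (STAT3, lost), -1.26 (promoters), -44.3 (shEV) and -39.9 (STAT3, gained). With peaks within 3000 bp joined, 28.4% were lost and 5.17% gained. Within groups of fold enrichment the promoter difference turned to 2.46, and those for STAT3 and shEV were -14.0 (lost), -14.5 (gained) and -21.1. With STAT3 peaks present with DOX only they were -24.4 (lost) and -10.3 (gained), and with the start site itself covered the promoter difference was -17.2. The cause of these moves was not tested, apart from the equal numbers, which by construction fix the first value and bring the shares lost and gained close together.

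Requiring also a log2 fold change over 1 in size left 1953 changed genes (1255 higher and 698 lower), with 71 higher and 38 lower among lost, 1139 among shared and 11 among gained. Leaving out 1 library at a time gave 6036 to 6587 changed genes, where the lone sample is assumed to vary like the other group, with 447 to 527 higher and 617 to 662 lower among lost, 3490 to 3712 among shared and 32 to 35 among gained. Same-numbered libraries share only a number (correlation of their deviations 0.0688), and the fit with the replicate block gave 8559 changed genes, 740 higher and 934 lower among lost, 4733 among shared and 45 among gained. DESeq2 gave 6614.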
